A study of Mus musculus with 6 samples.

Results

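The embryonic globin genes and other genes of the red cell lineage were followed in fetal lung that lacks Carm1. The set held 8 genes, the embryonic globins Hbb-y, Hbb-bh1 and Hba-x and 5 further red cell genes, Alas2, Slc4a1, Epb42, Ahsp and Klf1. Every probe set that the platform annotation pairs with 1 of these symbols was taken, which gave 14 probe sets of 7 genes among 45101 on the array. Ahsp was not analysed here. Total lung RNA was hybridised to Affymetrix arrays of the mouse genome, on which a set of short probes (a probe set) gives 1 intensity value. Of the 6 arrays, 3 carried RNA of Carm1 knockout lungs and 3 carried RNA of wild type lungs. Carm1 is a protein arginine methyltransferase and a coactivator of transcription. The labels say that the knockouts were taken at embryonic day 18.5. For the wild types the sample labels say neonatal and the design text gives embryonic day 18.5, so a difference of age and a difference of genotype cannot be told apart. Strain, litter, the form of the knockout allele and whether samples were single fetuses or pools are not given in the sources used here. The p-values therefore measure the spread between these samples only.

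Red cells are made in waves. Primitive red cells arise in the yolk sac, express the embryonic globins Hbb-y and Hbb-bh1 (beta type) and Hba-x (the zeta globin, alpha type), and lose their nuclei while in the circulation. Definitive red cells of the mouse are made in the fetal liver and carry adult globins, and young red cells of either kind keep RNA for a time after they enter the blood. Lung makes few red cells at this age, so red cell RNA in lung would come largely with its blood. The source of the red cell RNA in these samples was not tested. In such bulk RNA fewer cells of a type and less RNA per cell cannot be told apart.

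In the RefSeq gene table of GRCm38.p6, Hbb-bh1 and Hbb-y are neighbours on chromosome 7, beside Hbb-bh2, Hbb-bs and Hbb-bt, and Hba-x lies between Nprl3 and Hba-a1 on chromosome 11. RefSeq start windows of that build were found for 5 of the 8 genes, with none for Hbb-bh1, Slc4a1 or Ahsp. The 250 bases before the start are shown for both of the embryonic globins that had a window, and for Klf1 and Alas2, because the arrays separated the globins from Alas2 most widely. Capitals mark 4 motifs. The GATA motif was searched as GATAA and, on the opposite strand, as TTATC. The CACC box was searched as CACCC and, likewise, as GGGTG. The CCAAT box was searched as CCAAT and, on the opposite strand, as ATTGG. The motif like the TATA box was searched as ATAAA on the gene's own strand within the last 40 bases. Adjacent matches run together, and the GGGTG matches of Alas2 stand side by side. The Hbb-y window is chr7:103853208-103853457 on the minus strand, and those of Hba-x at chr11:32276350-32276599, Klf1 at chr8:84901732-84901981 and Alas2 at chrX:150547167-150547416 are on the plus strand.
Hbb-y: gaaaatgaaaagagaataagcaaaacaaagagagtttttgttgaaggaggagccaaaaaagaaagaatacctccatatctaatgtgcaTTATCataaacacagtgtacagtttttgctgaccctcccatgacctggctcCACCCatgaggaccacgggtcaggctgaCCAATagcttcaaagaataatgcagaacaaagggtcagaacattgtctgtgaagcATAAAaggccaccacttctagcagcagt
Hba-x: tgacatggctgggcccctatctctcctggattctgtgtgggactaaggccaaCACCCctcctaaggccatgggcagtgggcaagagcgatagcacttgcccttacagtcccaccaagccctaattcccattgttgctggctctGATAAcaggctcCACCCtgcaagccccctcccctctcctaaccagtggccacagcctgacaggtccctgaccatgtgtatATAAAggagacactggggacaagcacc
Klf1: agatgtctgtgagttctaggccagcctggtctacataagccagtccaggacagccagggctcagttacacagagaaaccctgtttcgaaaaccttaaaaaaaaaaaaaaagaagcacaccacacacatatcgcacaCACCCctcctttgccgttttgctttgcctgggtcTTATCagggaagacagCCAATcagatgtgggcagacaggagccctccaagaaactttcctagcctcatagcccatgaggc
Alas2: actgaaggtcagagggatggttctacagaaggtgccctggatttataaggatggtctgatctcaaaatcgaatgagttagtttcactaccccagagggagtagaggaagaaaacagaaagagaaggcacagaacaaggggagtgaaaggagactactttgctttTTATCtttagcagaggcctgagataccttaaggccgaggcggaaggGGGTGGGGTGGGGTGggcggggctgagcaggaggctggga
The Hbb-y window held all 4 motifs, with ATAAA beginning 28 bases, CCAAT 83, CACCC 111 and TTATC 162 bases before the start. The Hba-x window held ATAAA at 27 bases, CACCC at 95 and 198 bases and GATAA at 107 bases, and no CCAAT. The Klf1 window held CCAAT at 64, TTATC at 80 and CACCC at 114 bases, and the Alas2 window held GGGTG at 30, 35 and 40 bases and TTATC at 86 bases. The window of Epb42 held TTATC at 226 bases alone. All 4 motifs were not particular to the embryonic gene. The window of its adult beta globin neighbour Hbb-bt also held them, among them ATAAA at 27, CCAAT at 75, CACCC at 89 and GATAA at 204 bases. That of Hbb-bs held CCAAT at 76, CACCC at 90 and GATAA at 209 bases, and no ATAAA in the last 40. Over 32536 RefSeq windows of the same length, 22.5% held GATAA, 52.1% held CACCC, 33.8% held CCAAT and 5.49% held ATAAA in the last 40 bases, counted in the same way, and 0.366% held all 4. These matches describe letters and name no site of binding.

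Each array had been scaled to the same trimmed mean of 500, and array medians lay between 106 and 121. Over the tested probe sets, Pearson's r between arrays was 0.937 to 0.969. Carm1, the targeted gene, read 395, 374 and 511 in knockout lungs, against 814, 678 and 865 in wild type lungs (427 ± 73.6 and 786 ± 96.3, SD, n = 3 each), a log2 difference of -0.89 with an adjusted p of 0.105 in limma. Its 1 probe set has a place relative to the deletion that the sources used here do not give. The lung surfactant gene Sftpc was near the top of the signal range on all arrays, between 45812 and 57628. Bacterial control RNA was present on wild type arrays 1 and 3 (median signal 379 to 609) and near background on the other 4 arrays (4.29 to 11.4). Y-linked and Xist signals placed knockout 2 and wild type 3 as male and the other 4 as female.

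Both embryonic beta-type globins read higher in the knockout lungs. Hbb-y, the embryonic epsilon-type chain, had signals of 11210.3, 2529 and 3026 in knockout lungs, against 351, 1383 and 447 in wild type lungs, at the probe set of highest mean. Every knockout lay above every wild type, with knockout 1 far above the rest and wild type 2 the highest of its group. The means were 5588 ± 4875 in knockout and 727 ± 570.1 in wild type lungs (SD, n = 3 each). The log2 difference was 2.88 (SE 0.62, 95% interval 1.47 to 4.28), a 7.34-fold ratio of geometric means. It did not pass limma's test with Benjamini-Hochberg adjustment over all probe sets (adjusted p = 0.135), and a two-sided exact permutation test gave 0.1, its lower limit for 3 against 3 arrays. The other probe sets of Hbb-y gave log2 differences of 2.78 and 2.79, again with no overlap (adjusted p = 0.139 and 0.13 in limma). On the second of these the signals were 3530.1, 786 and 1012 in knockout lungs, against 127, 420.4 and 159 in wild type lungs, so the order of the arrays was the same at a lower signal. The probe set of highest mean and that at 2.78 carry the suffix _x, given to those that may also bind transcripts of related genes. The probe set at 2.79 carries _a instead. The highest-mean value was 2.20 to 3.48 with 1 array left out, and 1.67 for the 3 knockouts against wild type 2, the only wild type array without bacterial control RNA. Among 27022 tested probe sets those of Hbb-y ranked 8, 12 and 11 from the highest log2 difference.

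Hbb-bh1, the other embryonic beta-type chain, was dimmer. Its probe set of highest mean read 527, 151 and 255 in knockout lungs, against 83.1, 131 and 102 in wild type lungs. The groups did not overlap, and the gap between knockout 2 and wild type 2 was small. The log2 difference was 1.40 (SE 0.42, 95% interval 0.44 to 2.35, adjusted p = 0.222 in limma), a 2.63-fold ratio, and it was 0.92 without knockout 1. A second probe set read 432, 181 and 157 in knockout lungs, against 35.1, 128 and 45.2 in wild type lungs, with no overlap and a log2 difference of 1.97 (adjusted p = 0.192 in limma). The third read 249, 105 and 104 in knockout lungs, against 110.5, 77.5 and 10.4 in wild type lungs. Here wild type 1 lay above 2 knockouts, so the groups overlapped, and the log2 difference of 1.64 had a 95% interval from -0.21 to 3.50. It was 0.60 without wild type 3, the array of lowest signal, and 2.30 without wild type 1.

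Hba-x, the embryonic alpha-type chain, had 1 probe set, which read 2724, 614 and 686 in knockout lungs, against 138, 450.2 and 147 in wild type lungs. Its array order repeated that of Hbb-y, with knockout 1 highest, wild type 2 the highest wild type, and no overlap. The means were 1341 ± 1198 and 245 ± 178 (SD, n = 3 each), and the log2 difference was 2.32 (SE 0.61, 95% interval 0.94 to 3.70), with an adjusted p of 0.178 in limma. It was 1.63 to 2.88 with 1 array left out, and 1.22 against wild type 2 alone. Across the 6 arrays, which share knockout 1 as their extreme, Pearson's r of log2 values was 0.995 between Hbb-y and Hba-x and 0.954 between Hbb-y and Hbb-bh1.

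**Figure D1:**
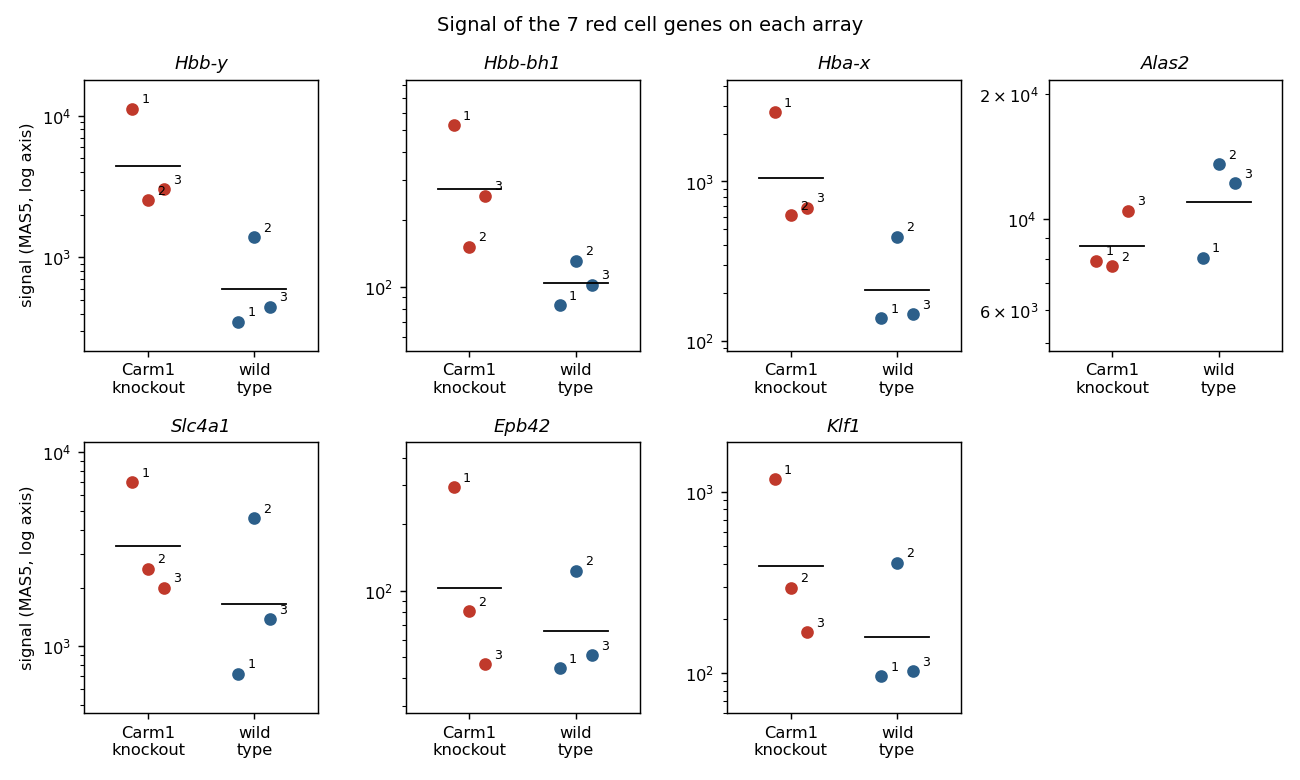
Signal of each member gene on each array (linear MAS5 intensity drawn on a log axis), knockout arrays left of wild type arrays, with the group's geometric mean as a black line, at the probe set of highest mean. Hbb-y, Hbb-bh1 and Hba-x have every knockout array above every wild type array, while Alas2, Slc4a1, Epb42 and Klf1 overlap.

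The other red cell genes gave no such separation. Alas2, the red cell form of the first enzyme of haem synthesis, read 7920.2, 7666 and 10451 in knockout lungs, against 8039, 13566 and 12193 in wild type lungs. Knockout 3 lay above wild type 1, and the log2 difference was -0.36 (SE 0.20, 95% interval -0.81 to 0.09, adjusted p = 0.475 in limma). It was -0.58 without wild type 1 and -0.20 without wild type 2. It was the only member below 0 among the probe sets measured. Klf1, the red cell Krüppel-like factor that activates adult beta globin, read 1171, 296 and 168 in knockout lungs, against 95.8, 406 and 102 in wild type lungs. Wild type 2 lay above 2 knockouts, and the log2 difference was 1.29 (SE 0.74, 95% interval -0.39 to 2.97, adjusted p = 0.488 in limma). It was 0.49 without knockout 1 and 1.97 without wild type 2, and it turned to -0.07 against wild type 2 alone.

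Slc4a1, the band 3 anion exchanger of the red cell membrane, read 7029, 2510.4 and 2002 in knockout lungs, against 721, 4564 and 1379 in wild type lungs. Wild type 2 was the second highest array, and the log2 difference was 0.99 (SE 0.65, 95% interval -0.49 to 2.46, adjusted p = 0.55 in limma). It was 0.44 without knockout 1, 0.39 without wild type 1 and 1.72 without wild type 2, and it turned to -0.48 against wild type 2 alone. The further probe sets of Slc4a1 gave 1.11 (adjusted p = 0.439) and 0.61 (adjusted p = 0.788). With 1 array left out these ran from 0.65 to 1.80 and from 0.06 to 1.47 (the last probe set was under the filter without knockout 1), and against wild type 2 alone they turned to -0.27 and -0.12. Epb42, protein 4.2, which ties band 3 to the membrane skeleton, read 294, 80.8 and 46.4 in knockout lungs, against 44.4, 123 and 51.0 in wild type lungs, at the probe set of highest mean. The groups overlapped, with a log2 difference of 0.66 (SE 0.67, 95% interval -0.87 to 2.19, adjusted p = 0.713 in limma). It turned to -0.09 without knockout 1 and to -0.25 against wild type 2 alone. Other single arrays left out gave 0.38 (wild type 1) to 1.24 (knockout 3). The second probe set of Epb42 read 513, 119 and 48.7 in knockout lungs, against 6.99, 217 and 46.1 in wild type lungs. Its log2 difference of 1.80 had an SE of 1.21, and it was 0.52 without wild type 1, 3.00 without wild type 2 and -0.59 against wild type 2 alone.

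All 14 member probe sets passed the filter on low signal, which kept those with a mean above a signal of 59.7. That mean was taken over both groups, so a probe set could pass with single arrays below this signal, or through the high signals of 1 group. For Hbb-bh1, 1 probe set without overlap read 35.1 and 45.2 in wild types 1 and 3, and the overlapping one 10.4 in wild type 3. The probe sets of Epb42 and 1 of Slc4a1 had arrays below it in both groups. Their log2 differences rest partly on such low signals. For these Hbb-bh1 probe sets, the second of Epb42 and that of Slc4a1, the wild type geometric mean lay below the filter signal. They passed through their knockout signals, so their part in the counts of higher probe sets is partly set by the filter. All stay in the counts given here. None of the 14 passed the adjusted threshold of 0.05, which 0.0296% of all tested probe sets did (8 of 27022). Of these 1 was higher (0.0037%) and 7 were lower (0.0259%) in knockout lungs. All 7 embryonic globin probe sets were higher in knockout lungs, and 6 had no overlap between the groups, where 52.7% of all tested probe sets were higher and 10.7% were higher without overlap. At an unadjusted p under 0.05 in limma the count was also 6 of 7, against 7.32% of all tested probe sets higher at that level. Of the 7 probe sets of the other members, 6 were higher and 1 lower in knockout lungs, none without overlap and none at an unadjusted p under 0.05. Lower signals without overlap were found for 9.36% of all tested probe sets, lower signals at an unadjusted p under 0.05 for 6.31%, and neither for any member. A log2 difference of at least 1 was found for 1.6% of tested probe sets and for 10 of the 14 members. A log2 difference of at least 2 was found for 0.204% of tested probe sets and for 4 members, 3 of Hbb-y and 1 of Hba-x. Probe sets of 1 gene share their transcript and are not separate evidence.

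**Figure D2:**
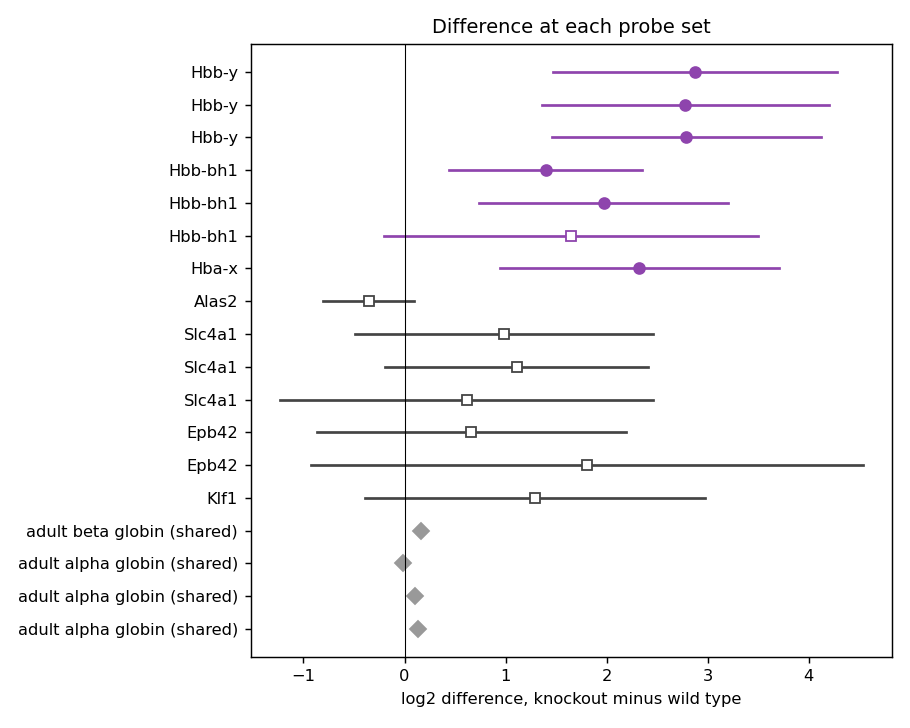
Knockout minus wild type log2 difference of each member probe set with its 95% interval from limma; filled circles mark probe sets whose groups do not overlap, open squares those that overlap, and grey diamonds the probe sets shared by adult globins. Hbb-y and Hba-x lie between 2.32 and 2.88, Alas2 at -0.36, and the shared adult globin probe sets within 0.17 of 0.

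Embryonic globins were then set against the other red cell genes on each array, as the mean log2 value of the 3 globins minus that of Alas2, Slc4a1, Epb42 and Klf1, centred on the 6 arrays. Only differences between arrays have a meaning in this measure, since levels of different probe sets cannot be compared. It was 0.98, 0.29 and 1.06 in knockout lungs, against -0.61, -0.90 and -0.82 in wild type lungs. The groups did not overlap, and the wild types lay close together. The difference of 1.55 log2 units amounts to a 2.93-fold higher ratio of embryonic globins to other red cell genes in knockout lungs. No p is given for it because the members were chosen with earlier results known. The embryonic globin mean itself differed by 2.20, at 2.32, 0.29 and 0.68 in knockout lungs, against -1.66, -0.22 and -1.42 in wild type lungs. The mean of the other genes differed by 0.65 and overlapped, at 1.34, -0.00 and -0.38 in knockout lungs, against -1.06, 0.69 and -0.60 in wild type lungs. Without knockout 1 the difference of the other genes was 0.14, and without wild type 2 it was 1.15.

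Alas2 carried part of this difference. Without it the ratio was 0.43, 0.18 and 1.22 in knockout lungs, against -0.35, -0.97 and -0.51 in wild type lungs, a difference of 1.22 (2.33-fold) that still did not overlap. Against Alas2 alone the difference was 2.55. Among the 12 ratios of 1 globin to 1 other gene, all were higher in knockout lungs, by 0.10 to 3.23 log2 units, and 9 did not overlap. The 3 that overlapped were Hbb-bh1 against Slc4a1, Epb42 and Klf1. Those without overlap were Hbb-y and Hba-x with each of the 4 genes, and Hbb-bh1 with Alas2. The 12 ratios reuse the same few genes and are not separate evidence. How often ratios of other genes do not overlap was not counted. Slc4a1, Epb42 and Klf1 varied together over the 6 arrays (r = 0.906 to 0.971), while Alas2 had an r between -0.32 and 0.07 with every other member.

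**Figure D3:**
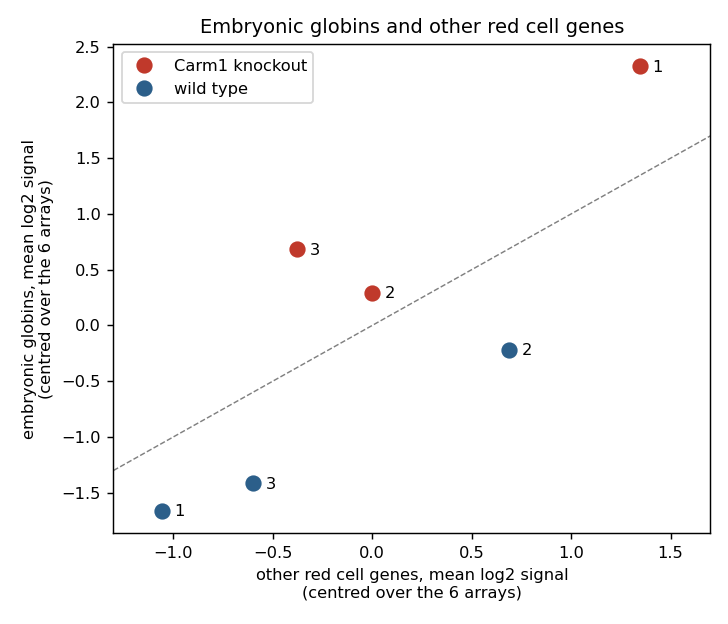
Mean log2 signal of the embryonic globins (vertical axis) against that of the other red cell members (horizontal axis), both centred on the 6 arrays, with 1 point per array and a diagonal of equal change. The 3 knockout arrays lie above the diagonal and the 3 wild type arrays below it, at vertical distances of 0.29 to 1.06 above and 0.61 to 0.90 below.

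Liver transcripts were high on 1 array of each group. Alb, which encodes serum albumin, read 46294, 1118 and 4446 in knockout lungs, against 2116, 39146 and 104 in wild type lungs. Afp, alpha-fetoprotein of fetal liver and yolk sac endoderm, read 34351, 1832 and 8894 in knockout lungs, against 1101, 28713 and 38.8 in wild type lungs. All 14 tested hepatocyte and yolk sac endoderm markers had a higher mean log2 value in knockout lungs (median 1.33), with none past the adjusted threshold and 1, Hnf4a, without overlap. Of all 12947 tested genes 7070 were higher, 1629 of them without overlap. The summed signal of the markers ran from 5314 to 225904 in knockout lungs and from 865 to 156855 in wild type lungs. Knockout 1 and wild type 2 were the highest arrays for 13 of the 14 markers and for 6 of the 7 probe sets of the other red cell members, all but Alas2. The same held for 4.96% of all tested probe sets. It held for 0 of the 7 embryonic globin probe sets, which for the 6 without overlap follows from every knockout lying above wild type 2. Within the groups the embryonic globins had these arrays highest too. Knockout 1 was the highest array for 7 of the 7, and wild type 2 the highest wild type for 6. Over the 6 arrays, which knockout 1 and wild type 2 dominate, the mean log2 value of the markers had an r of 0.69 with the embryonic globin mean and 0.82 with the other red cell mean.

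Leaving both arrays out, a choice made after seeing the data, set knockouts 2 and 3 against wild types 1 and 3. In this fit 61 probe sets passed the adjusted threshold in limma, among them 5 member probe sets, all higher in knockout lungs. They were the 3 of Hbb-y, with log2 differences of 2.63 to 2.80 and adjusted p of 0.00129 to 0.00399, Hba-x with 2.19 (adjusted p = 0.0100), and 1 of Slc4a1 with 1.34 (adjusted p = 0.0312). The ratio of embryonic globins to other red cell genes differed by 1.39 there. The arrays left out were also extremes of the members. Knockout 1 was the highest array for 7 of the 7 embryonic globin probe sets, and wild type 2 the highest wild type for 6. Without them the SE of Hbb-y, at its probe set of highest mean, fell from 0.62 to 0.18. The small p-values of this fit therefore depend on the choice of arrays and are not separate evidence. Both remaining wild type arrays carry the bacterial control RNA, and with 2 arrays a side this control and the genotype cannot be told apart. Within the 4 arrays that lack it, the 3 knockouts against wild type 2, the embryonic globin mean differed by 1.32, that of the other genes by -0.36, and the ratio by 1.68. The part of liver tissue in the members' signals was not tested. Between the males, 1 of each genotype, the embryonic globin mean differed by 1.71 and the ratio by 1.11, and between the females, 2 of each, by 2.44 and 1.77.

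**Figure D4:**
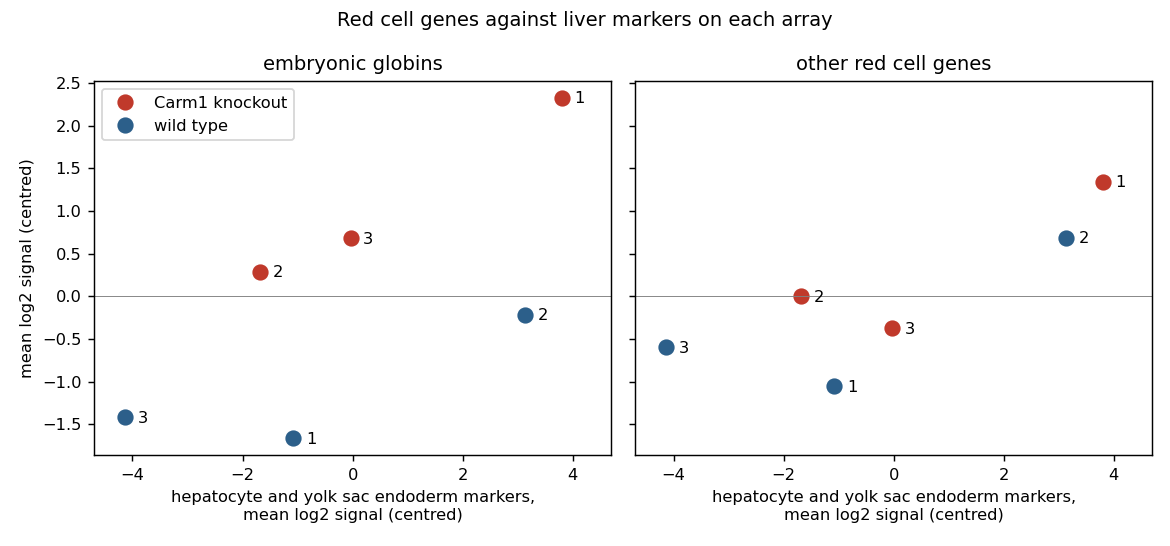
Mean log2 signal of the embryonic globins, and of the other red cell members, against the mean log2 signal of the hepatocyte and yolk sac endoderm markers, each centred on the 6 arrays, with 1 point per array. Knockout 1 (3.80) and wild type 2 (3.13) stand at the right; the knockout arrays lie higher in embryonic globins than every wild type array, whereas wild type 2 lies above knockouts 2 and 3 in the other members.

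The adult globin probe sets were bright or dim and gave no single direction. The probe set shared by adult beta globin genes read 40518, 44229 and 42715 in knockout lungs, against 46765, 32964 and 35229 in wild type lungs, and the groups overlapped at a log2 difference of 0.17 (adjusted p = 0.643 in limma). The 3 probe sets shared by adult alpha globin genes differed by -0.02 to 0.13, each with overlap. All 4 were at or above the 99.6th percentile of their array, and the highest signal of any probe set was 54059 on the array where it was lowest, and whether the scale is compressed there was not tested. Below that range, Hbb-b2, an adult beta globin symbol, read 2633, 2251 and 3451 in knockout lungs, against 2245, 6279.8 and 4242 in wild type lungs, with overlap and a log2 difference of -0.52 (adjusted p = 0.53 in limma). The single-symbol probe set of Hba-a2, an adult alpha globin gene, read 68.5 to 108 in knockout lungs and 96.0 to 103 in wild type lungs (log2 difference -0.17). Below the filter, and so untested, the probe set of Hba-a1, another adult alpha globin gene, read 21.4, 55.4 and 39.0 in knockout lungs, against 2.89, 15.3 and 1.5 in wild type lungs. These values do not overlap and are higher in knockout lungs, by 3.15 log2 units at signals close to the bottom of the range. A second probe set of Hbb-b2, also below the filter, read 48.3 to 53.9 in knockout lungs and 29.0 to 51.9 in wild type lungs, with overlap.

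The genes around haemoglobin synthesis were counted by list, 1 probe set per gene. No gene of any list passed the adjusted threshold, and the median log2 difference of all 12947 tested genes was 0.03. Of all these genes 7070 were higher in knockout lungs, 1629 of them without overlap, and 5877 were lower, 1364 of them without overlap. Of 14 measured haem synthesis genes, 7 were higher and 7 lower (median 0.02). Alad, the second enzyme of the pathway, read 7083, 5447 and 7649.6 in knockout lungs, against 2696, 3373 and 4762 in wild type lungs, with no overlap and a log2 difference of 0.92 (adjusted p = 0.137 in limma). Flvcr1, a haem exporter, was lower without overlap, at 555 to 773 in knockout lungs and 862 to 957 in wild type lungs (log2 difference -0.44, adjusted p = 0.264 in limma). Of 19 genes of the red cell membrane and skeleton, 17 were higher and 2 lower, with a median of 0.31. Knockout 1 and wild type 2 were the highest arrays for 10 of these 19, as they were for the liver markers. Rhd, a carrier of the Rh blood group, had a log2 difference of 1.42 with overlap (adjusted p = 0.308). Aqp1, a water channel of red cells that lung endothelium also makes, was lower, at 4039 to 5941 in knockout lungs and 8776 to 11658 in wild type lungs (log2 difference -1.03, adjusted p = 0.0909 in limma).

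Red cell transcription factors numbered 16, of which 9 were higher and 7 lower (median 0.14). Lyl1, a relative of Tal1, was higher without overlap, at 496 to 579.9 in knockout lungs and 358 to 395 in wild type lungs (log2 difference 0.50, adjusted p = 0.185 in limma). Klf3, a repressor of the Krüppel-like family, was lower without overlap (log2 difference -0.29, adjusted p = 0.273). Bcl11a and Sox6, which silence embryonic globin genes in definitive red cells and were named after their values were seen, both overlapped, at -0.27 (adjusted p = 0.83) and 0.40 (adjusted p = 0.468). Among 15 genes of iron uptake and erythropoietin response, 5 were higher and 10 lower (median -0.04). In that list Tfrc, the transferrin receptor, differed by 0.80 (adjusted p = 0.288) and Slc40a1, the iron exporter ferroportin, by 0.45 (adjusted p = 0.416), both with overlap. Late red cell genes split 14 higher to 12 lower (median 0.11). Mkrn1, a ubiquitin ligase, was lower in knockout lungs, at 3637 to 4806, against 5522 to 7478 in wild type lungs, without overlap (log2 difference -0.62, adjusted p = 0.141), as was Rsad2, an interferon-induced gene, at -1.11 (adjusted p = 0.252). Of 10 genes that clear haem and haemoglobin, 5 were higher and 5 lower (median -0.16). Hmox1, the haem-degrading oxygenase, was higher without overlap at 0.98 (adjusted p = 0.205), and Lrp1, a receptor for haem bound to haemopexin, lower at -0.39 (adjusted p = 0.274).

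**Figure D5:**
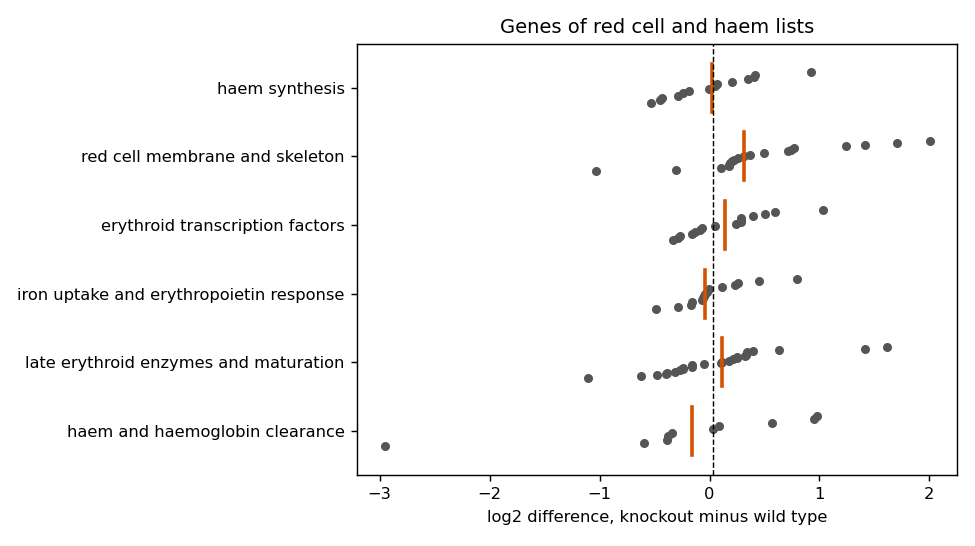
Knockout minus wild type log2 difference of each tested gene of the red cell and haem lists. These are haem synthesis, membrane and skeleton, transcription factors, iron uptake, late red cell genes and clearance. An orange bar marks the list's median, and a dashed line the median of all tested genes (0.03). Medians run from -0.16 in the clearance list to 0.31 in the membrane and skeleton list.

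Markers of other cells that the lung samples could hold were counted in the same way. Mast cell and basophil markers were mostly higher, 8 of 9 with a median of 0.66, where 7070 of all 12947 tested genes were higher. Cpa3, the mast cell carboxypeptidase, read 777, 2292 and 1454 in knockout lungs, against 221, 221 and 255 in wild type lungs (log2 difference 2.57, adjusted p = 0.0796 in limma), and Mcpt8, a basophil protease, differed by 2.46 (adjusted p = 0.0898). Cpa3 was highest in knockout 2, where the embryonic globin mean, though not every probe set of Hbb-bh1, was lowest among the knockouts. Of 13 megakaryocyte and platelet markers 4 were higher and 9 lower (median -0.11), with Gp9 at -0.53 (adjusted p = 0.495) and Thbs1 at 0.19 (adjusted p = 0.534). Of 13 macrophage markers 8 were higher and 5 lower (median 0.19), with Ms4a7 at 1.24 (adjusted p = 0.0852) and C1qa at 0.50 (adjusted p = 0.198), both without overlap. In the lung list 2 of 13 genes were higher and 11 lower (median -0.36). Car4, a carbonic anhydrase of lung capillaries, differed by -2.08 (adjusted p = 0.0852) and Aqp5, a water channel of alveolar type I cells, by -1.72 (adjusted p = 0.0934). The part of these cells in the members' values was not tested.

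The genes most like the embryonic globin mean over the 6 arrays, of 12940 genes compared, were Pabpc4 (r = 0.992), Plac1 (0.985), 1110019D14Rik (0.984), Gfer (0.980) and Cks2 (0.980). Plac1 read 897, 402 and 435 in knockout lungs, against 171, 246 and 197 in wild type lungs, without overlap. With 6 arrays a high r is common, and 33 genes exceeded 0.95. Those most like the other red cell mean were Tff3 (r = 0.989), Saa4 (0.989), Pilrb1 (0.986), Abca8b (0.985) and Gata1 (0.983), and 38 genes exceeded 0.95. Tff3 read 1068, 109 and 55.6 in knockout lungs, against 32.3, 318 and 59.6 in wild type lungs, highest on the arrays that were highest in liver transcripts. Gata1, the master regulator of red cell genes, read 266, 153 and 130.3 in knockout lungs, against 76.7, 212 and 94.4 in wild type lungs, with overlap.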

How the data were processed

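MAS5 made the deposited values, per the submitters' processing notes (version not given in the sources used here), and they are linear intensity values. Per the labels' protocols, RNA came from a column kit and was labelled as cRNA by the manufacturer's method. With 2% trimmed from both ends, all arrays averaged 500, so the authors had scaled them to 1 level. Detection calls were not used here.

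The members, lists and rule for named genes were chosen with earlier results of these data known. Symbols came from the platform annotation, updated through the gene ID in the RefSeq table of GRCm38.p6 (34945 probe sets with 1 symbol, 932 with several, 9160 not named here, and 34741 found by gene ID). No single gene was named from a probe set with several symbols, and the shared adult globin probe sets were given by globin type only. Without the 64 controls, the 27022 probe sets with a mean log2 value above the 40th percentile were tested as log2 of the deposited intensity with no offset, with limma 3.58.1 in R 4.3.3 (lmFit, eBayes with an intensity trend, two-sided, Benjamini-Hochberg adjustment, threshold 0.05), knockout minus wild type. Probe sets whose names end in _x or _s can bind transcripts of related genes, which matters for globins. Means carry the SD on the linear scale, and folds are ratios of geometric means. Members were given with all probe sets, and in means by the probe set of highest mean. From each list the pair of genes of smallest p was named, and as likest the 5 genes of highest r per mean. Tables and figures were made with Python 3.11.15, pandas 2.3.3, numpy 2.4.6 and matplotlib 3.10.9. The model was tested on simulated data with independent noise for each probe set and array. At the adjusted threshold it recovered 0% of 1.5-fold, 34.1% of 2-fold, 77.1% of 4-fold and 90.8% of 8-fold changes. Variation that many probe sets share, such as that of the liver transcripts here, was not simulated. Alternatives covered normalization, filter, offset, variance model, replicate block, bacterial control RNA, sex, liver markers and each array left out. The number of arrays limits precision.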

Additional observations from a re-analysis of the deposited data

How the results depend on the processing

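The embryonic globin mean stayed higher in knockout lungs under all settings tried, by 1.32 to 2.64 log2 units, and the ratio to the other red cell genes by 1.22 to 1.79, the lowest without Alas2 (1.22). Leaving out each array in turn gave 1.59 to 2.64 for the embryonic globin mean, 1.41 to 1.79 for the ratio, 0.14 to 1.15 for the mean of the other red cell genes, 0 to 12 probe sets past the threshold and 0 member probe sets. The mean of the other genes turned to -0.36 with bacterial control RNA as a term or on the arrays without it, which leave wild type 2 as the only wild type. The count of 8 probe sets became 0 without the intensity trend, 40 with robust variance, 2 with bacterial control RNA as a term, 4 with sex as a term, 3 on the arrays without bacterial control RNA and 61 without the arrays of highest Alb. The number of member probe sets was 0 in every setting but this last, where it was 5. That setting was chosen after seeing the data and drops the arrays that were also extreme for the members. With the liver marker mean as a term, added after seeing the data, Hbb-y differed by 2.37 to 2.46 (adjusted p = 0.0727 to 0.0908 in limma). Same-numbered samples did not deviate together (r of -0.14, -0.38 and -0.01). With so few arrays, on which liver transcripts vary widely, this cannot exclude that the numbers pair the samples. With the replicate number as a block 0 probe sets and 0 members passed. The cause of these changes was not tested beyond the arrays each setting drops. The smallest exact permutation p that 3 against 3 arrays allow is 0.1, and the spread between knockout arrays, 4.43-fold for Hbb-y, limits every member's estimate.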

Other observations

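Alas2 and Klf1 were alike in their pattern over the 6 arrays with different red cell genes. Of 90 tested red cell genes in the lists, 6 (6.67%) had a Pearson r above 0.8 with Alas2, as had 2.23% of 12940 genes. With Klf1 27 (30.0%) had one above 0.8, as had 3.24% of those genes, and 0 of the 90 were in both counts. Klf1 itself had an r of 0.83 with the mean of the liver markers, and Alas2 one of -0.02. The part of the arrays high in liver transcripts in this split was not tested. The 6 were Ube2l6 (r = 0.986), Hbb-b2 (0.972), Bpgm (0.907), Mkrn1 (0.838), Fech (0.823) and Tent5c (0.817), and this grouping was made after the values were seen. They include 4 of the 26 tested late red cell genes, among which r with Alas2 ran down to -0.55. Bpgm, which makes 2,3-bisphosphoglycerate, read 2544, 2638 and 2721 in knockout lungs, against 2151, 4947 and 3864 in wild type lungs. Fech, which inserts iron into haem, read 6015, 4389 and 4899 in knockout lungs, against 5196, 9281 and 8102 in wild type lungs. Since the genes were picked for likeness to Alas2 on the same arrays, their direction is not a separate result, and with 6 arrays a high r is common.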
